A study of Mus musculus with 6 samples.

Results

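The myeloid C-type lectin receptors described here are 10 mouse genes, Clec12a, Clec4a1, Clec4a2, Clec4a3, Clec4d, Clec4e, Clec4n, Clec5a, Clec7a and Clec10a, out of the 57010 genes measured. They were taken by gene name, and they were chosen by a look at the same contrast that is described below, so their differences between the groups are descriptions and no test on them counts as support. The libraries came from whole skin of wild-type mice at the end of a diabetic ulcer study. In 3 mice the skin received a gel with CST, spelled out as cortistatin in the study's title, which is a peptide close to somatostatin. The remaining 3 mice received a gel with Yoda1, a small molecule that opens the mechanically gated cation channel Piezo1. The labels give no age and no further allele or agent, and a group of untreated or vehicle-treated mice was not analysed here, so a value that is lower with CST can equally be read as higher with Yoda1. The labels also tag the samples as keratinocytes, although the tissue is given as skin.

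C-type lectin receptors are membrane proteins that bind sugars, lipids or the remains of dead cells, and macrophages, dendritic cells, monocytes and neutrophils carry many of them. Inhibitory members such as Clec12a and Clec4a2 hold a tyrosine motif in their cytoplasmic tail (ITIM) that recruits the phosphatases SHP-1 and SHP-2. Activating members such as Clec7a, Clec4d and Clec4e signal through an activating tyrosine motif of their own or of the adaptor FcRγ to the kinase Syk and the adaptor Card9, a route known to lead to cytokines such as IL-1β and TNF. In skin these receptors are known for the response to fungi, mycobacteria and injured cells.

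In GENCODE M21 on GRCm38, 9 of the 10 genes lie on chromosome 6. A group of 6 spans Clec4a1 (chr6:122921848-122934619, plus strand), Clec4a3 (chr6:122952515-122969875, plus), Clec4a2 (chr6:123106428-123143999, plus), Clec4n (chr6:123229843-123247021, plus), Clec4d (chr6:123262111-123275265, plus) and Clec4e (chr6:123281789-123289870, minus). Clec12a (chr6:129342691-129365303, plus) and Clec7a (chr6:129461591-129472779, minus) lie together farther along the chromosome, Clec5a (chr6:40574894-40585821, minus) lies apart from both, and Clec10a is on another chromosome (chr11:70156197-70170834, plus). Clec4a2 overlaps the predicted pseudogene Gm44132 on the same strand, with no overlap of exons, and no other member overlaps an annotated gene. Clec7a carries the GENCODE biotype polymorphic_pseudogene. Clec4a1, Clec4a2 and Clec4a3 are close copies of one ancestral gene, and the sources used here do not say how reads that match more than 1 of them were counted.

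The promoter windows of the members with the most different patterns are shown because these genes, all on chromosome 6, had their higher mean in opposite groups. Each window is RefSeq sequence of GRCm38.p6, from 250 bases before to 50 bases after a RefSeq transcription start, written 5′ to 3′ on the gene's strand. Capitals mark GAGGAA on either strand (TTCCTC on the other), the core of a PU box that PU.1 is known to bind in myeloid cells, and GAAANNGAA on either strand, a short form of the interferon-stimulated response element (ISRE). The RefSeq starts of Clec12a and Clec4a2 lie inside the longer GENCODE genes. The windows are chr6:129349994-129350293 (plus) for Clec12a, chr6:123122440-123122739 (plus) for Clec4a2, chr6:123261857-123262156 (plus) for Clec4d and chr6:123289822-123290121 (minus) for Clec4e.
Clec12a: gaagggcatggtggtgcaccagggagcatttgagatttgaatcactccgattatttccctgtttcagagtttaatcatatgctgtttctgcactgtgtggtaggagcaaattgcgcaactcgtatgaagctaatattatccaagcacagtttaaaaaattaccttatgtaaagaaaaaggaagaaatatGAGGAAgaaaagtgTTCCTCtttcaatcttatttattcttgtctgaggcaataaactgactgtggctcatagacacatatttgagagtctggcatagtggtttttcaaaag
Clec4a2: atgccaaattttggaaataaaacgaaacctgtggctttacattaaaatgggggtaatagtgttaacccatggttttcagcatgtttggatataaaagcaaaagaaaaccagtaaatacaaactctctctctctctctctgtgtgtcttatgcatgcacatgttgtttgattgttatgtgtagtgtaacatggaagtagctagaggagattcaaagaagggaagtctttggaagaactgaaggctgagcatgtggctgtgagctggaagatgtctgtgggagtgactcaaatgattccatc
Clec4d: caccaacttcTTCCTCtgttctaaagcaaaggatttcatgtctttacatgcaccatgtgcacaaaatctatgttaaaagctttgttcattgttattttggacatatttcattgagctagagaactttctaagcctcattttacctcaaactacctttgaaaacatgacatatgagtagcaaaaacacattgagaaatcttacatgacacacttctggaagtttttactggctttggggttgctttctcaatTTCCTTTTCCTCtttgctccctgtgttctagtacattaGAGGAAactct
Clec4e: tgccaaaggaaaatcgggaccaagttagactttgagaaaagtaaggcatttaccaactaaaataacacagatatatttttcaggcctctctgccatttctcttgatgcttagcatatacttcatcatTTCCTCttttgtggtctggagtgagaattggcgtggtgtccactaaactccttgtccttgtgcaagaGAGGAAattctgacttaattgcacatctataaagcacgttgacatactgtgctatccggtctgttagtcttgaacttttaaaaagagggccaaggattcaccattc

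RefSeq windows were at hand for 8 members, and not for Clec10a and Clec4n. GAGGAA was in the windows of 7 of these 8 members, all but Clec4a2, and in 28.3% of the 32851 RefSeq promoter windows of the same length. In Clec12a it was there on both strands, its first bases 61 and 47 bases before the start. In Clec4e the matches lay 56 and 123 bases before the start, and in Clec4d they lay at bases -240, 8 and 40 from it. Among the members GAAANNGAA was found in Clec4d alone, at base 2, where it overlaps the PU box at base 8, against 8.56% of all windows. The AP-1 motif TGANTCA was in the windows of Clec12a and Clec4a2 (7.81% of all windows), and the C/EBP motif TTNNGCAA in those of Clec12a and Clec4e (10.8%). AP-1 and C/EBP matches are not capitalised. The letters were chosen with the sequences in view, and a match is not a bound site. The AP-1 match of Clec4a2 lay at base 32, after the start, and with AP-1 in 2 of 8 members nothing is read from it. GAGGAA was in every member with a window except Clec4a2, so it sets neither receptor class apart.

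Values are FPKM, fragments per kilobase of a gene relative to library depth, as the authors deposited them, and a change is the CST mean minus the Yoda1 mean on the log2(FPKM + 1) scale. Depth recovered from the steps of the values was 23791352 to 29620526 reads per library, and 13898 to 14665 genes reached 1 FPKM. The mitochondrial share was 3.25% to 3.81% in 4 libraries, and CST mouse 1 (6.72%) and Yoda1 mouse 3 (7.61%) stood apart with a higher share. Keratinocyte markers were high in every library, with the basal keratin Krt14 at 5835 to 14601 FPKM, while the leukocyte gene Ptprc reached 43.2 FPKM. All 8 muscle genes of a fixed list were higher in every CST library than in every Yoda1 library (median change 4.02), as were 4.52% of all tested genes. The libraries thus hold other cells of skin besides keratinocytes. In such whole-tissue libraries, fewer cells of a type and less RNA per cell cannot be told apart. All 10 lectins passed the filter of a mean of 1 FPKM, with 186 to 12390 reads per library. The gene lengths that the FPKM values imply are 884 to 2157 bases for the 10 members, so an order of levels between genes depends on the lengths the authors used. On that scale Clec12a ranked 9 or 10 of the 10 in the CST libraries and 6 or 7 in the Yoda1 libraries.

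Of the 10 lectins, 5 had a higher mean with CST and 5 a lower one, with a median change of 0.05 beside -0.01 over all 14588 tested genes. None passed limma's test across all genes after Benjamini-Hochberg adjustment, and neither did any other gene (0.0% of the genes tested). At an unadjusted limma p under 0.05 were 2 of the 10, Clec12a and Clec4e, where 4.0% of all genes were. The 3 libraries of one group lay wholly above the 3 of the other for 3 of the 10, and for 6.59% of all genes. Because the members were chosen on this contrast, nothing is read from these counts. Yoda1 was above CST for Clec12a, as for 2.08% of all genes, and CST was above Yoda1 for Clec4d and Clec4e, as for 4.52% of all genes.

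**Figure D1:**
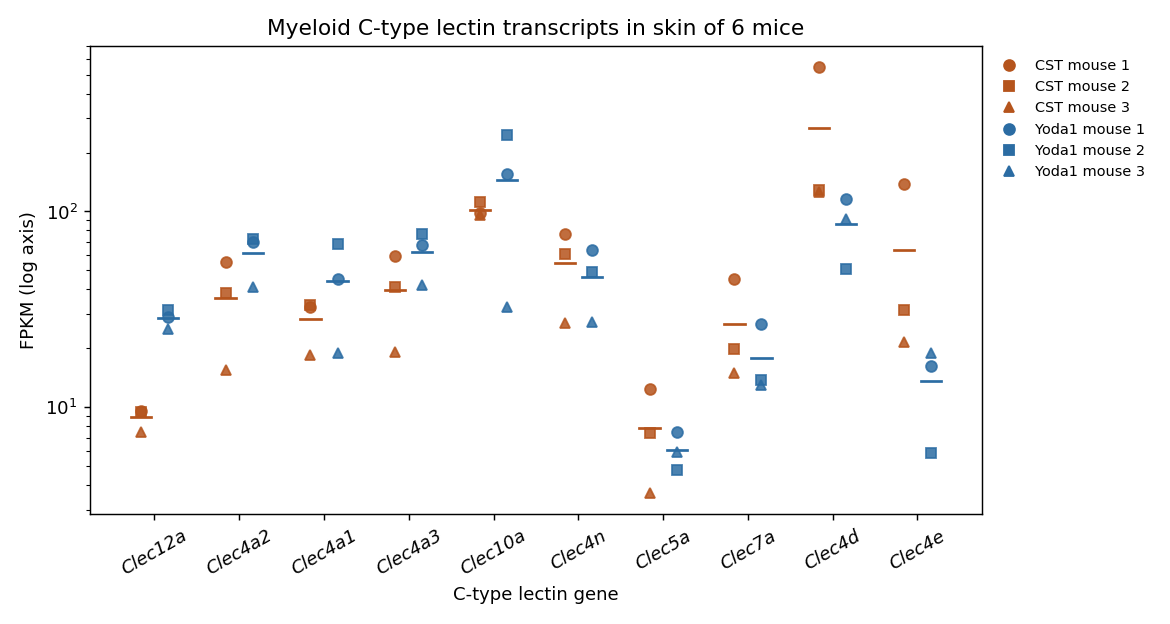
FPKM of the 10 lectin genes in each of the 6 libraries on a log axis, with each mouse as a point and the group means as short lines. Clec12a lies at 7.52 to 9.62 FPKM with CST and 25.0 to 31.3 FPKM with Yoda1, and Clec4d and Clec4e lie higher with CST, each with CST mouse 1 far above the rest.

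Clec12a, the inhibitory receptor also called MICL, which is known to recognise uric acid crystals of dead cells, was lower with CST. With the mice in the order 1 to 3, it was at 9.62, 9.52 and 7.52 FPKM with CST and at 29.0, 31.3 and 25.0 FPKM with Yoda1, and values below keep that order. Every Yoda1 library was above every CST library, and the spread within each group was small beside the gap. The means were 8.89 ± 1.18 FPKM with CST and 28.4 ± 3.16 FPKM with Yoda1 (SD, n = 3 each), a 3.20-fold higher mean with Yoda1. These values rest on 386 to 466 reads with CST and 1052 to 1619 reads with Yoda1. The change was -1.58 (SE 0.21), with limma's adjusted p = 0.521. Without Yoda1 mouse 2 it was -1.51 (adjusted p = 0.0474), a limma fit in which 0.932% of all genes were called, and without CST mouse 3 or Yoda1 mouse 1 the adjusted p was 1.0.

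Clec4a2, the inhibitory receptor DCIR of dendritic cells and macrophages, had a lower mean with CST but overlapping groups. It was at 55.3, 38.3 and 15.6 FPKM with CST and at 69.5, 72.5 and 41.1 FPKM with Yoda1. Yoda1 mouse 3 lay below CST mouse 1, and CST mouse 3 was the lowest of the 6. The change was -0.86 (SE 0.45), and without CST mouse 3 it was -0.36.

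Clec4a3, a near relative of Clec4a2 in the same gene group, followed the same order of libraries. It was at 59.5, 40.9 and 19.2 FPKM with CST and at 67.1, 76.7 and 42.2 FPKM with Yoda1, a change of -0.72 (SE 0.42) that was -0.28 without CST mouse 3. The ratio of Clec4a2 to Clec4a3 stayed between 0.811 and 1.04 in the 6 libraries, and their correlation on the log scale was r = 0.997 over these 6 points, which share libraries and depth. Clec4a1 was at 32.6, 33.5 and 18.4 FPKM with CST and at 45.4, 67.9 and 18.9 FPKM with Yoda1. Yoda1 mouse 3 was there as low as CST mouse 3, unlike in Clec12a. The change of Clec4a1 was -0.50 (SE 0.46), or -0.10 without Yoda1 mouse 2.

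Clec4e, known as Mincle, binds mycobacterial glycolipids and a nuclear protein released by dead cells. It was at 138, 31.4 and 21.4 FPKM with CST and at 16.3, 5.82 and 18.8 FPKM with Yoda1. The groups did not overlap, but CST mouse 3 and Yoda1 mouse 3 were close, and CST mouse 1 stood far above all others. The means were 63.6 ± 64.5 FPKM and 13.7 ± 6.90 FPKM (SD, n = 3 each), 4.66-fold higher with CST. The change was 1.81 (SE 0.69), and without CST mouse 1 it was 1.02.

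Clec4d, known as MCL, pairs with Mincle at the cell surface and is its neighbour on chromosome 6. It was at 545, 128 and 126 FPKM with CST and at 116, 50.9 and 91.2 FPKM with Yoda1. The groups did not overlap by a narrow margin, since Yoda1 mouse 1 lay just under CST mice 2 and 3. Its mean was 3.09-fold higher with CST, the change was 1.33 (SE 0.59), and without CST mouse 1 it was 0.63. Clec4d and Clec4e went together over the libraries (r = 0.979 over 6), with a ratio of Clec4d to Clec4e of 3.96 to 8.74.

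Clec7a, the beta-glucan receptor Dectin-1, was at 45.2, 19.9 and 15.0 FPKM with CST and at 26.6, 13.8 and 12.9 FPKM with Yoda1. The groups overlapped, with Yoda1 mouse 1 above CST mice 2 and 3. The change was 0.48 (SE 0.44), and without CST mouse 1 it was 0.04. Of the 3 activating receptors Clec7a had the smallest change.

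Clec4n, the mannan receptor Dectin-2 that signals through FcRγ, was at 76.8, 60.7 and 26.8 FPKM with CST and at 63.3, 48.9 and 27.3 FPKM with Yoda1, with a change of 0.18 (SE 0.44). Its groups covered the same range. Clec5a, known as MDL-1 and coupled to the adaptor DAP12, was at 12.4, 7.39 and 3.65 FPKM with CST and at 7.45, 4.77 and 5.94 FPKM with Yoda1. Its change was 0.21 (SE 0.39), with both the highest and the lowest library in the CST group.

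Clec10a, the galactose-type lectin MGL1 of macrophages and dendritic cells, was at 98.6, 112 and 96.5 FPKM with CST and at 155, 245 and 32.6 FPKM with Yoda1. The CST libraries lay within a narrow range, while the Yoda1 libraries held both the highest and the lowest value. The coefficient of variation was 8.11% with CST and 74.0% with Yoda1. The change was -0.08 (SE 0.65), and leaving out Yoda1 mouse 3 made it -0.93, while leaving out Yoda1 mouse 2 made it 0.51. Its paralogue Mgl2 was at 7.40, 10.7 and 25.5 FPKM with CST and at 28.6, 38.1 and 2.02 FPKM with Yoda1, so Yoda1 mouse 3 was the lowest for both genes.

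The highest library was CST mouse 1 for Clec4d, Clec4e, Clec4n, Clec5a and Clec7a, and Yoda1 mouse 2 for Clec12a, Clec4a1, Clec4a2, Clec4a3 and Clec10a. By top library the activating receptors were thus in the first set and the inhibitory ones in the second. Each set is defined by a single mouse, among genes chosen on this contrast, so nothing is read from the division. CST mouse 3 was the lowest library for 6 of the 10, Clec12a, Clec4a1, Clec4a2, Clec4a3, Clec4n and Clec5a.

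The contrast of inhibitory with activating receptors was taken within each library, as the mean log2(FPKM + 1) of Clec12a and Clec4a2 minus that of Clec7a, Clec4d and Clec4e. It was -2.64, -1.13 and -1.59 with CST and 0.27, 1.49 and 0.17 with Yoda1. The mean of the inhibitory pair thus lay below the mean of the 3 activating genes in every CST library and above it in every Yoda1 library. This does not hold for each gene pair: Clec4a2 was above Clec7a in every library, Clec12a was below Clec4d in every library, and Clec4a2 was below Clec4d in Yoda1 mice 1 and 3. The means were -1.78 ± 0.77 with CST and 0.64 ± 0.73 with Yoda1 (SD, n = 3 each), a difference of -2.42. With genes chosen on this contrast, the separation of the groups is no sign of stability, and 3 libraries against 3 cannot give a two-sided exact permutation p below 0.1.

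When 1 mouse was left out, the activating side depended most on CST mouse 1 and the inhibitory side most on CST mouse 3. The inhibitory mean was 4.61, 4.34 and 3.57 with CST and 5.52, 5.61 and 5.05 with Yoda1, without overlap and with a difference of -1.22. The activating mean was 7.25, 5.47 and 5.16 with CST and 5.26, 4.12 and 4.88 with Yoda1, with overlap and a difference of 1.21. Without CST mouse 1 the activating difference was 0.56 and the inhibitory one -1.43. Without CST mouse 3 they were 1.61 and -0.91. Without both libraries of high mitochondrial share they were 0.63 and -1.61, with estimated library weights 0.35 and -1.33, and with the neutrophil covariate described below -0.02 and -1.58. All 6 pairs of 1 inhibitory and 1 activating gene separated the groups, from a difference of -1.34 for Clec4a2 minus Clec7a to -3.39 for Clec12a minus Clec4e. The pairs reuse the same genes, which were chosen on this contrast, so their number is no support. As a ratio of FPKM, Clec4e to Clec12a was 14.3, 3.30 and 2.85 with CST and 0.562, 0.186 and 0.753 with Yoda1. Clec7a to Clec12a was 4.70, 2.09 and 2.00 with CST and 0.917, 0.442 and 0.517 with Yoda1. Clec4d to Clec12a was 56.7, 13.4 and 16.7 with CST and 4.01, 1.63 and 3.64 with Yoda1. Clec12a was thus the lower gene with CST and the higher with Yoda1 beside Clec4e and Clec7a, and the lower gene in all 6 libraries beside Clec4d.

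**Figure D2:**
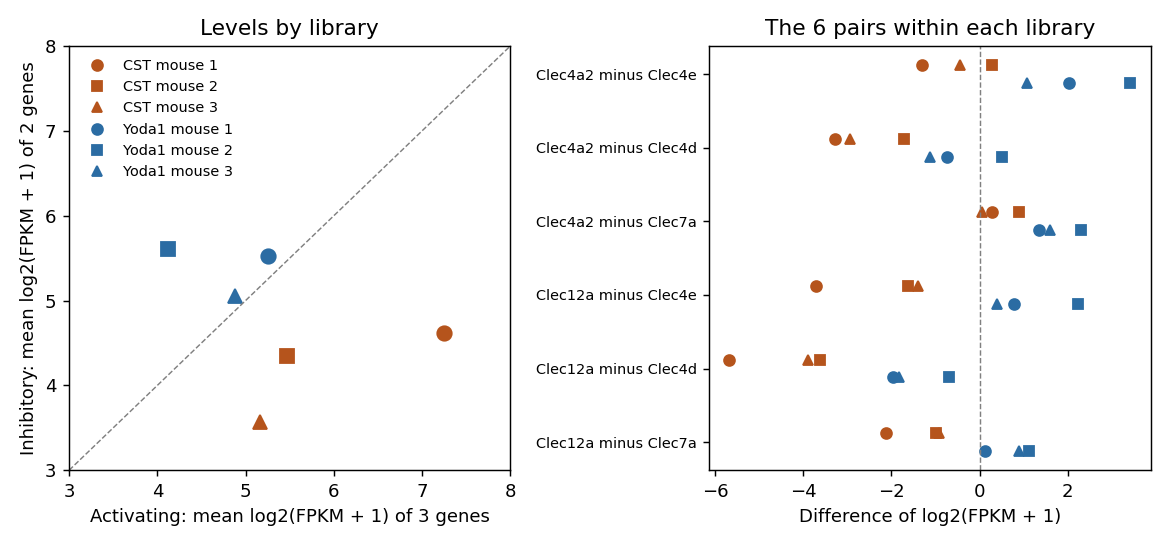
Left, mean log2(FPKM + 1) of the inhibitory receptors (Clec12a, Clec4a2) against that of the activating receptors (Clec7a, Clec4d, Clec4e) in each library, with the line of equal values dashed. Right, the difference of log2(FPKM + 1) for each of the 6 pairs, 1 point per mouse. The 3 CST libraries lie below the line of equal values and the 3 Yoda1 libraries above it, and in each pair the Yoda1 points lie to the right of the CST points.

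Levels of cell-type markers also varied between the libraries. The summed level of 13 neutrophil genes was 11563, 2114 and 1943 FPKM with CST and 1805, 850 and 4218 FPKM with Yoda1, and 11 of its 12 tested genes had a higher mean with CST (median change 0.94). S100a8 and S100a9 made up most of this sum in every library, at 3066 and 7553 FPKM in CST mouse 1 and 1487 and 2539 FPKM in Yoda1 mouse 3. Of the listed genes only S100a8 and S100a9 were higher in Yoda1 mouse 3 than in CST mouse 2, so the sum is mainly their level. For 4 of the 12 tested genes, Retnlg, Hdc, Trem1 and Il1r2, every CST library was above every Yoda1 library. The same was so for 4.52% of all tested genes. CST mouse 1, the highest library for Clec4d, Clec4e and Clec7a, was also by far the highest in this list. The defining neutrophil gene Ly6g was at 1.82, 1.02 and 0.27 FPKM with CST and at 0, 0.32 and 0.20 FPKM with Yoda1, the granule gene Mpo was at most 0.511 FPKM, and Csf3r was at 8.65 to 36.2 FPKM. When the mean log level of the neutrophil genes entered the fit as a covariate, the change was 0.07 for Clec4d, 0.22 for Clec4e and -0.35 for Clec7a, and the inhibitory minus activating difference was -1.56. The same covariate left Clec12a at -1.65.

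The summed level of 11 macrophage genes was 1977, 2072 and 1507 FPKM with CST and 4407, 5194 and 1539 FPKM with Yoda1, and 10 of the 11 had a lower mean with CST (median change -0.79). Their defining genes were present throughout, with Adgre1 (F4/80) at 23.5 to 86.5 FPKM and Csf1r at 44.8 to 153 FPKM. Yoda1 mouse 3, the library with the highest mitochondrial share (7.61%), was within the CST range in this list, and its Clec12a was at 25.0 FPKM. With the macrophage level as covariate the change was -1.44 for Clec12a, -0.39 for Clec4a2, -0.28 for Clec4a3 and 0.14 for Clec4a1. The Clec4a genes thus had changes nearer to 0 in that fit, and Clec12a a change close to the one without a covariate.

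Relative to the mean of 8 pan-leukocyte genes, Clec12a was at -3.63, -3.35 and -3.13 with CST and at -2.49, -2.39 and -1.34 with Yoda1 on the log2 scale, a difference of -1.30 without overlap. The same measure for Clec4a2 differed by -0.58 and overlapped. The ratio of Clec12a to Ptprc was 0.223 to 0.578 with CST and 0.733 to 1.21 with Yoda1, and that to Csf1r was 0.109 to 0.129 with CST and 0.190 to 0.558 with Yoda1. The difference of -1.30 relative to the pan-leukocyte genes was -0.80 without both libraries of high mitochondrial share and -0.85 with estimated library weights.

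The pan-leukocyte genes summed to 805 to 1286 FPKM with CST and 630 to 1885 FPKM with Yoda1, and the 8 monocyte genes to 137 to 554 and 320 to 542 FPKM, with the monocyte receptor Ccr2 at 16.4 to 60.7 FPKM. The plasmacytoid marker Siglech was at 0.535 to 1.73 FPKM, and the eosinophil gene Epx was listed at 0 in all 6 libraries. The part of cell composition, of muscle content and of the mitochondrial share in the lectin differences was not tested, since fits on 6 libraries cannot tell them apart. Among the pair of libraries with a high mitochondrial share, Clec12a was at 9.62 FPKM in the CST mouse and 25.0 FPKM in the Yoda1 mouse. Without that pair its change was -1.72, and the inhibitory minus activating difference was -2.23.

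**Figure D3:**
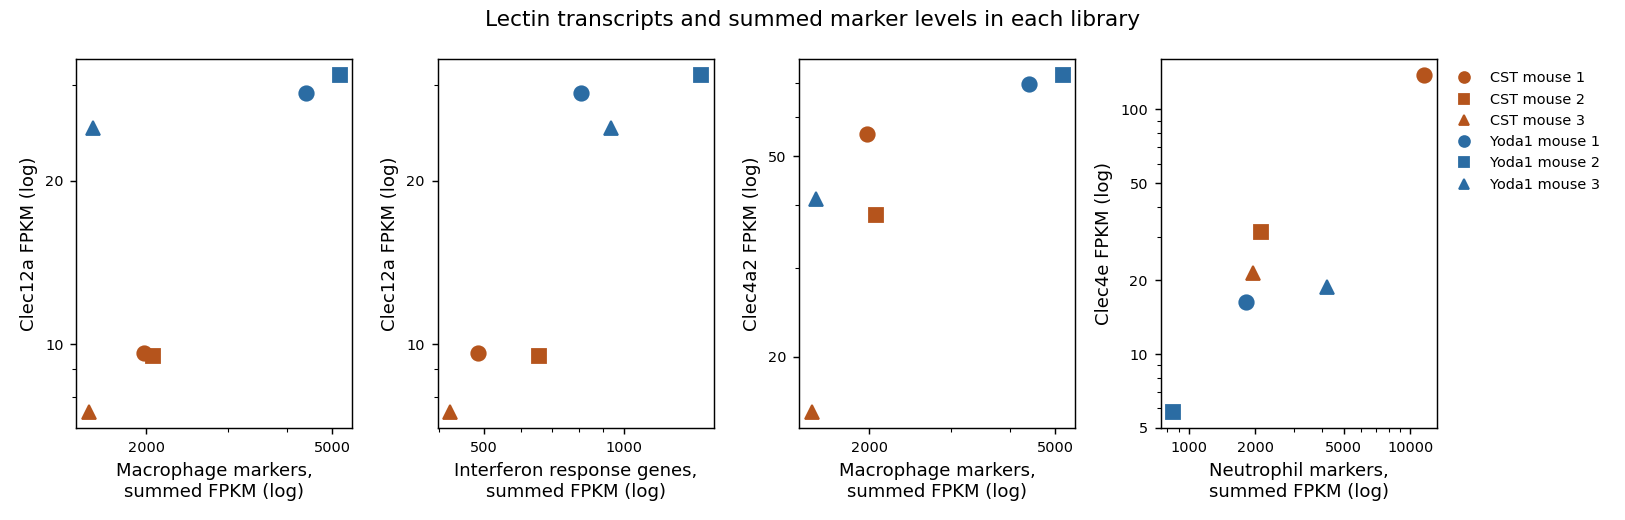
FPKM of Clec12a against the summed FPKM of the macrophage and the interferon response lists, of Clec4a2 against the macrophage list and of Clec4e against the neutrophil list, on log axes, with 1 point per mouse. Yoda1 mouse 3 has the macrophage level of the CST mice (1539 FPKM) and Clec12a at 25.0 FPKM, and CST mouse 1 is highest in both Clec4e (138 FPKM) and the neutrophil list (11563 FPKM). Most of the neutrophil sum is S100a8 and S100a9.

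Of 17 listed signalling genes all were tested, 5 had a higher and 12 a lower mean with CST, none passed the test and none separated the groups (median change -0.17), where 6.59% of all genes did, so with 17 genes a count of 0 is near that share. The FcRγ gene Fcer1g was at 413, 428 and 272 FPKM with CST and at 542, 834 and 224 FPKM with Yoda1. The DAP12 gene Tyrobp was at 382, 233 and 136 FPKM with CST and at 385, 329 and 197 FPKM with Yoda1. Syk was at 23.1, 17.1 and 11.7 FPKM with CST and at 23.4, 18.8 and 6.49 FPKM with Yoda1. Card9, the adaptor downstream of Syk, was at 6.96, 10.7 and 5.40 FPKM with CST and at 14.3, 13.3 and 4.73 FPKM with Yoda1. For each of these genes the groups overlapped, and Yoda1 mouse 3 was the lowest library for all but Tyrobp.

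On the inhibitory side, 6 of 6 listed genes were tested, 2 higher and 4 lower with CST, with a median change of -0.20 and no separation of the groups. The SHP-1 gene Ptpn6 was at 63.7, 72.8 and 53.2 FPKM with CST and at 90.8, 118 and 47.5 FPKM with Yoda1, and Inpp5d, the gene of the lipid phosphatase SHIP1, at 23.6, 24.6 and 13.5 FPKM and at 26.6, 27.4 and 7.37 FPKM. Both were lowest in Yoda1 mouse 3. The SHP-2 gene Ptpn11, named after its values were seen, was instead highest in that mouse, at 26.2 FPKM, and lowest in CST mouse 3, at 15.8 FPKM.

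Genes known as outputs of the Syk and Card9 route had higher means with CST in 7 of 9 tested (11 listed), with a median change of 1.93, and none passed the test. Il6 and Il10 had lower means with CST, with changes of -0.66 and -0.41. For 6 of them, Il1b, Il23a, Tnf, Cxcl2, Nlrp3 and Ptgs2, all CST libraries were above all Yoda1 libraries, as for 4.52% of all tested genes. Il1b was at 1046, 288 and 280 FPKM with CST and at 116, 42.9 and 91.5 FPKM with Yoda1, a change of 2.50. Tnf was at 84.1, 11.4 and 25.8 FPKM with CST and at 4.40, 1.39 and 5.50 FPKM with Yoda1, a change of 2.80. Il1b and Tnf have many other inducers, and both were highest in CST mouse 1, as were Clec4d and Clec4e.

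Interferon-stimulated genes were on the side of Clec12a. All 20 listed genes had a lower mean with CST, every Yoda1 library was above every CST library for 15 of them (2.08% of all tested genes), the median change was -0.97, and none passed the test. Ifit3, an interferon-induced antiviral protein, was at 18.1, 23.0 and 18.0 FPKM with CST and at 42.9, 55.2 and 56.4 FPKM with Yoda1. Irf7, the regulator of type I interferon genes, was at 72.0, 104 and 50.0 FPKM with CST and at 111, 246 and 180 FPKM with Yoda1. Yoda1 mouse 3 was high for these genes as it was for Clec12a, in contrast to the macrophage list.

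Likeness over the 6 libraries was ranked by Pearson's r of log2(FPKM + 1) among tested genes, with the members and predicted or clone-based gene names left out. The genes most like Clec12a were then Gbp3 (0.979), Gbp2 (0.970), Cfap36 (0.963), Mx2 (0.963) and Glod4 (0.962). Those most like Clec4a2 were Trim30a (0.992), Ccl8 (0.989), Zfp934 (0.985), Rgs19 (0.984) and Cybc1 (0.982). For Clec4e they were Cpeb3 (0.999), Arid5b (0.997), Rab20 (0.996), Igf1r (0.993) and Retnlg (0.991), and for Clec7a they were Pdk1 (0.992), Tmem126a (0.985), Pfkfb3 (0.980), Fdxacb1 (0.979) and Syne1 (0.978). These values describe 6 points that share libraries and depth, and no function is read from them. Among the members, Clec12a correlated with Clec4a2 at 0.71, with Clec4a3 at 0.69 and with Clec4e at -0.665, and Clec7a with Clec5a at 0.88. The nearest genes of the 4 receptors did not overlap.

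**Figure D4:**
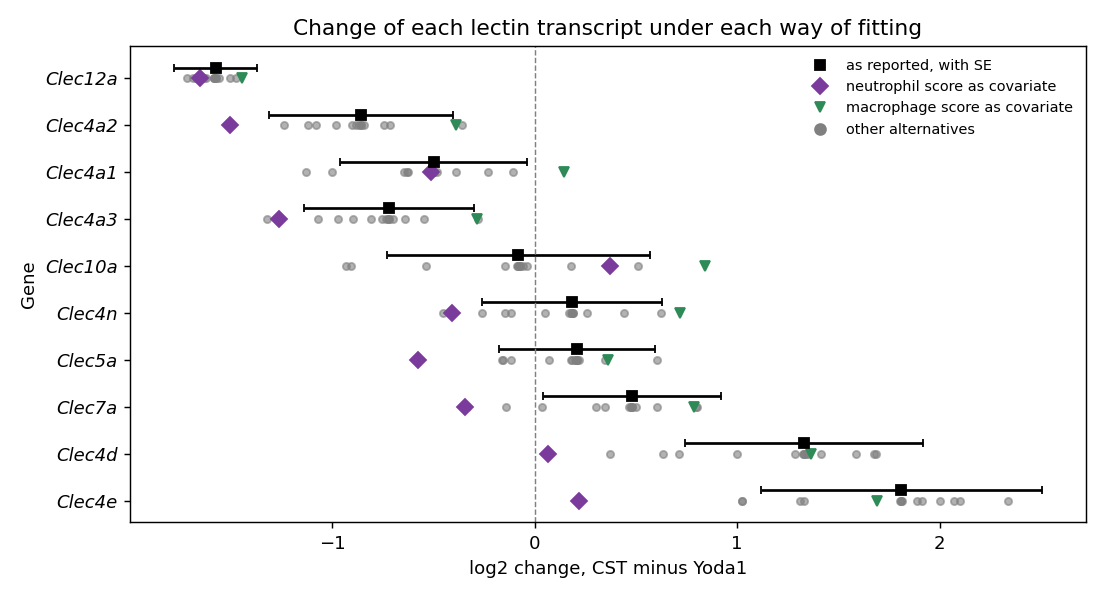
Change of each lectin gene (CST minus Yoda1, log2(FPKM + 1)) as reported (square, bar of 1 SE) and under 16 alternative settings (other points, with the neutrophil and macrophage covariates marked), 1 row per gene. Clec12a stays between -1.72 and -1.44, while the points of Clec4a1, Clec4n, Clec5a, Clec7a and Clec10a lie on both sides of 0, for Clec4a1 with only the macrophage covariate above it.

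Under 16 alternative settings the sign was kept for Clec12a, Clec4a2, Clec4a3, Clec4d and Clec4e. Several of these outcomes were fixed in advance. Dropping the filter and adding the balanced replicate block cannot move a change. Leaving out mice cannot turn the sign where the groups do not overlap, as for Clec12a, Clec4d and Clec4e. The count of kept signs is therefore no support. It turned in 1 setting for Clec4a1, 3 for Clec7a, 4 each for Clec5a and Clec10a and 5 for Clec4n. When limma weighted each library by its estimated reliability, 9.24% of all genes were called, and Clec12a (adjusted p = 0.00965), Clec4a2 (0.0406) and Clec4a3 (0.0479) were among them, all lower with CST. In the same fit the change was 0.37 for Clec4d, 1.03 for Clec4e and -0.33 for Clec7a, none of them called, and the inhibitory minus activating difference was -1.68. The weights ran from 0.193 for Yoda1 mouse 3 to 12.8 for Yoda1 mouse 1, so Yoda1 mouse 1 counted most in that fit.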

How the data were processed

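The authors deposited 1 table of FPKM values for 57010 genes in 6 skin libraries (3 CST, 3 Yoda1). The builds GRCm38 and mm10 are named, per the submitters' processing notes, and the sources used here give no aligner, counting tool or strand. The deposited positions were not used, since 2.81% of 52029 matched identifiers had the GRCm38 start, and positions are from GENCODE M21. Per the labels, the mice of a group are separate animals.

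The step between low FPKM values gave each library's depth and reads, and the reads summed to 99.25% to 99.38% of the depth. All 14588 tested genes gave whole reads within 0.004 reads. At this depth 1 read on 1 kb is worth 0.0338 to 0.042 FPKM, which covers counting error only. limma 3.58.1 in R 4.3.3 (lmFit, eBayes with trend, two-sided) was run on log2(FPKM + 1) for genes averaging 1 FPKM or more, and p-values were adjusted by Benjamini-Hochberg (threshold 0.05). The scale understates changes of low genes. The fit was tested on simulated data.

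Members, gene lists, markers and motifs were chosen with earlier results of these data known. Genes that separated the groups are named for the neutrophil, output and other lectin lists, and not all of them for the interferon, muscle and remaining lists. The text also names all 10 members, a fixed set of signalling and marker genes, and the 5 genes with the highest correlation with each of 4 members. That ranking left out the members and predicted or clone-based gene names. Ptpn11, Il6, Il10, S100a8 and S100a9 were named after their values were seen. Alternatives were a pseudocount of 0.1 FPKM, no filter, median-of-ratios scaling, quantile normalization, voom on recovered reads, library weights, covariates, a replicate block and leaving out each mouse. Leaving out both libraries of high mitochondrial share was added after seeing the data.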

Additional observations from a re-analysis of the deposited data

How the results depend on the processing

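The number of genes called by limma was 0 in the reported fit and in 13 of 16 alternatives, and 1348 with estimated library weights. Leaving out 1 mouse at a time gave 0 to 136 calls, the highest without Yoda1 mouse 2. Unadjusted p-values under 0.05 numbered 584, and 585 with limma's voom on recovered reads. The inhibitory minus activating difference of -2.42 ranged from -2.75 to -2.00 when 1 mouse was left out, and was -1.56 with the neutrophil score as a covariate. Clec12a stayed below 0 in all 16 alternatives (-1.72 to -1.44), with limma adjusted p from 0.00965 to 1.0. Its groups did not overlap, so no fit that left out mice could turn that sign. Relative to pan-leukocyte genes it was -1.50 to -0.93 with 1 mouse left out and -0.80 without both libraries of high mitochondrial share. With a replicate block, which cannot move a change in this balanced design, the difference was -2.42 and Clec12a -1.58 (limma adjusted p = 0.228). Over all tested genes, deviations of same-numbered mice correlated at -0.08, 0.21 and -0.20, and those of other pairs at -0.34 to 0.34. Such values cannot show whether the mice were paired. The block raised the SE of Clec12a from 0.21 to 0.26 and lowered that of every other member, for Clec4n from 0.44 to 0.25. Depth does not limit the members, which hold at least 186 reads each.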

Other observations

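Of 25 other C-type lectin receptor genes, 16 were tested, 6 with a higher and 10 with a lower mean with CST (median change -0.10), and none passed limma's test. Cd207 (langerin, the Langerhans cell lectin) and Cd69 (an early activation marker of lymphocytes) were higher in every CST library, as were 4.52% of all tested genes. Clec14a, an endothelial gene, was higher in every Yoda1 library, as were 2.08% of all tested genes. For Cd69 the lowest CST value, 1.13 FPKM, was close to the highest Yoda1 value, 1.05 FPKM. The mannose receptor Mrc1 was at 98.5, 61.8 and 44.7 FPKM with CST and at 115, 103 and 30.3 FPKM with Yoda1. Clec4b1, a dendritic cell relative of Clec4a2, was at 2.86, 1.93 and 2.13 FPKM with CST and at 7.22, 7.10 and 1.89 FPKM with Yoda1. Cd209a was at 14.3, 10.8 and 11.0 FPKM with CST and at 11.5, 19.1 and 3.05 FPKM with Yoda1.

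Clec12b, the inhibitory neighbour of Clec12a, was below the filter and was at 0.958, 0.581 and 0.627 FPKM with CST and 0.378, 0.287 and 0.147 FPKM with Yoda1, the opposite order to Clec12a. Clec9a, a receptor for dead cells on dendritic cells, had means of 0.436 and 0.829 FPKM, and Clec4a4 was at 0.107 to 0.392 FPKM. Clec4f, the lectin of liver macrophages, was listed at 0 in all 6 libraries.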
